A study of Arabidopsis thaliana with 28 samples.

Results

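Closed flower buds of the Arabidopsis thaliana mutant ibm1 were compared with buds of the Columbia control, Col, by sequencing polyadenylated RNA. The comparison holds 4 of the 28 samples of the series, 2 libraries of each genotype, taken by the genotype that their titles and source names give. Its features are the 27416 genes counted, of which 21548 passed a filter on low counts and were tested. The series holds 4 more bud RNA libraries, of the mutants ibm1 jmj27 and pds5, which shared the fit. Its 20 chromatin immunoprecipitation and input libraries were not analysed here. The labels give no allele for ibm1, no plant age, no number of plants per library and no time of harvest. They describe chambers with long days and with short days and do not say which kind held these plants.

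IBM1 encodes a JmjC-domain demethylase of the KDM3 family, which removes methyl groups from lysine 9 of histone H3 (H3K9), a mark of silent chromatin. It is known for keeping that mark, and the DNA methylation outside CG sites that goes with it, off transcribed genes. Plants without it are known for irregular flowers, leaves and pollen, and by its title the series is a study of meiosis in males. A closed bud holds sepals, petals, anthers and the pistil, so its RNA is a mixture of many cell types. Fewer cells of a type and less RNA per cell cannot be told apart in such samples.

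Total counts were 19490663 and 23532908 in the Col libraries and 22792305 and 20290376 in the ibm1 libraries. Replicates differed by more than sampling noise, with a chi-square per degree of freedom of 2.89 in Col and 2.30 in ibm1. The floral organ genes AP1, PI, AG, SEP1 and SEP2, which mark buds, were expressed in all 4 libraries and missed the threshold set below, with AG at 99.1 and 108 CPM in Col and 95.1 and 100.3 CPM in ibm1. Values of AP3 and SEP3, also chosen as bud markers, are not given here. Of the whole list of 19 floral organ genes 8 fell and 2 rose by that threshold, so bud markers were not all unchanged. That is 52.6% called, against 31.0% of all genes tested, so the 5 genes named do not stand for the list. Of the 7 seed markers 5 were too low to be tested, and the list summed to between 1.62 and 2.51 CPM, counts scaled to library size, in every Col and ibm1 library. Of 5 root markers only COBL9, a root hair gene, could be tested, and it fell by 1.05. Levels below are CPM scaled by the TMM method, given for both libraries of a genotype in replicate order, and they compare libraries for a gene and not genes with each other. Changes are log2 fold changes of ibm1 against Col with a standard error (SE) from edgeR's quasi-likelihood test. A gene is said to have risen or fallen where the p-value, adjusted by the Benjamini-Hochberg method over all genes tested, was under 0.05. With n = 2 libraries per genotype, and no label that says replicates came from separate plants, the p-values capture no more than the spread among these samples, and part of it may be technical.

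IBM1 (AT3G07610), the gene that names the mutant, stood at 52.5 and 55.5 CPM in Col and 21.2 and 19.95 CPM in ibm1, so its transcript was reduced and not absent. Both ibm1 libraries lay far below both Col libraries, and the fall was 1.39 ± 0.0838 (SE, adjusted p = 4.98e-08). It was at 18.8 and 21.4 CPM in ibm1 jmj27 and 55.7 and 53.8 CPM in pds5. Across the genome 3552 genes rose and 3128 fell, 16.5% and 14.5% of the genes tested and 31.0% in all, which is the share to set beside every count of list members below. The median change of all genes was 0.02 on the log2 scale. Most called changes were small: 771 rises and 759 falls were at least 2-fold (3.58% and 3.52% of the genes tested), 260 and 132 at least 4-fold, and 105 and 31 at least 8-fold. Between 30.1% and 32.0% of the tested genes were called on each of the 5 nuclear chromosomes. The calls depended on the number of libraries. Without Col replicate 1, Col replicate 2, ibm1 replicate 1 or ibm1 replicate 2 there were 2190, 2126, 2157 and 2051 rises and 1882, 1717, 1694 and 1658 falls.

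The changes of the other 5 KDM3 genes lay between -0.34 and 0.29. JMJ24, JMJ28 and JMJ29 were called at 0.22, 0.28 and 0.29 and JMJ26 at -0.34, while JMJ27 was at 0.19 (adjusted p = 0.0596) and missed the threshold, which it passed under the replicate block, with Col and ibm1 fitted alone and without ibm1 replicate 1. The calls of JMJ24, JMJ26 and JMJ29 ended whichever of the 4 libraries was omitted, and that of JMJ28 ended without Col replicate 1 or either ibm1 replicate. All 4 ended under the DESeq2 Wald test. Outside that family, 2 of 14 other histone demethylase genes fell and 1 rose. JMJ30, an H3K27 demethylase gene whose RNA is known to cycle with the evening clock, went from 91.6 and 93.1 CPM in Col to 12.6 and 10.1 CPM in ibm1. That fall, of 3.02 ± 0.148 (SE, adjusted p = 7.34e-08), was 1 of the 12 largest falls of genes with a symbol, and the 2 genotypes did not come near each other. JMJ32, its relative, fell by 1.13 and lost the call without Col replicate 2 or either ibm1 replicate. JMJ16 rose by 0.25, a call that ended when any library was left out.

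**Figure D1:**
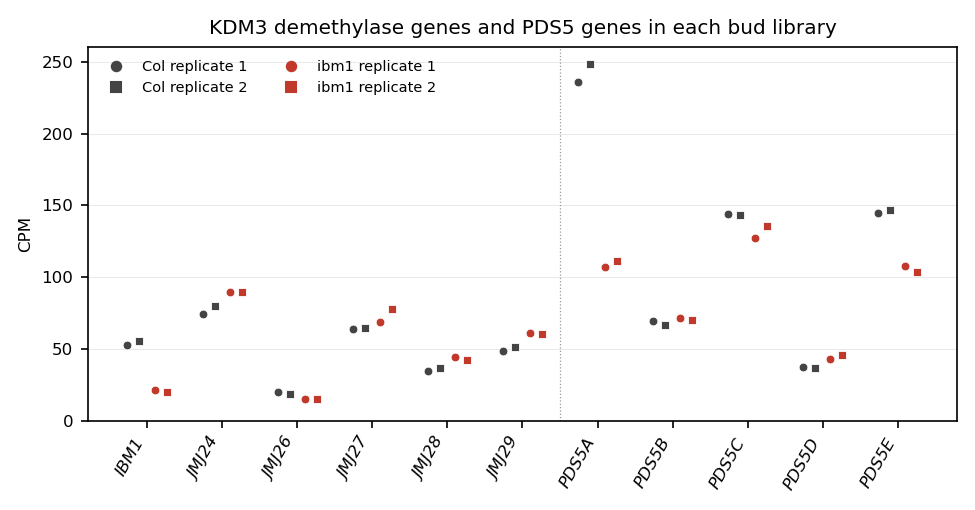
Levels of the 6 KDM3 demethylase genes and the 5 PDS5 genes in each Col (grey) and ibm1 (red) bud library, in CPM on a linear axis, with circles for replicate 1 and squares for replicate 2. IBM1 and PDS5A stand apart by more than 2-fold, while PDS5B and PDS5C differ little.

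PDS5 proteins bind cohesin, the complex that keeps sister chromatids joined until division. Of 22 cohesin genes, 3 rose and 3 fell, and the largest change was in PDS5A (AT5G47690), at 236 and 249 CPM in Col and 107 and 111 CPM in ibm1. Both ibm1 libraries lay far below both Col libraries, a fall of 1.15 ± 0.0828 (SE, adjusted p = 2.73e-07). PDS5E fell by 0.46 ± 0.0684 (SE, adjusted p = 0.000185), from 145 and 147 CPM in Col to 108 and 104 CPM in ibm1. The other members, PDS5B at 0.05, PDS5C at -0.13 and PDS5D at 0.26, had smaller changes, and only PDS5D passed, a call that ended without either Col replicate or ibm1 replicate 2. PDS5A was higher in the ibm1 jmj27 libraries, at 215 and 249 CPM, than in ibm1, and this difference between the mutants was 1.09 ± 0.0826 on the log2 scale (SE, adjusted p = 2.44e-07). The meiotic cohesin subunit SYN1 was at -0.33 (adjusted p = 0.309) and its core partner SMC1 at 0.09 (adjusted p = 0.515). SMC3 and the centromere protector gene SGO1 were called at 0.26 and 0.37 and the separase gene ESP1 at -0.30, and each of these calls ended when any library was left out and under the DESeq2 Wald test.

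Genes of RNA-directed DNA methylation, the pathway in which small RNAs guide methylation to transposons and repeats, were called about as often as all genes. Of 21 tested, 5 fell and 2 rose, 33.3% called against 31.0% of all genes, with a median of -0.08, and the 5 falls held when any 1 library was left out. DCL3, the Dicer that cuts the small RNAs, stood at 117 and 128 CPM in Col and 72.5 and 72.9 CPM in ibm1 and fell by 0.75 ± 0.14 (SE, adjusted p = 0.00344). RDR2, the polymerase that makes their double-stranded precursor, fell by 0.70, and CLSY1, a remodeler that recruits RNA polymerase IV, by 0.61. NRPE1, the largest subunit of RNA polymerase V, fell by 0.44 and the Argonaute gene AGO9 by 0.41. In each of these 5 genes both ibm1 libraries lay below both Col libraries. CLSY2 and RDM1 were called at 0.63 and 0.33, and the first call ended without Col replicate 1 or ibm1 replicate 2 and the second when any library was left out.

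The enzymes that write the H3K9 and CHG marks did not change as 1 group. SUVH4 and CMT3, whose loss is known to suppress ibm1 defects, missed the threshold, at -0.14 (adjusted p = 0.17) and -0.09 (adjusted p = 0.337). Of the 18 genes in the list of H3K9 and DNA methylation, 5 fell and 2 rose, with 1, 3, 2 and 2 falls without Col replicate 1, Col replicate 2, ibm1 replicate 1 and ibm1 replicate 2 and 1, 0, 1 and 1 rises. SUVH5 and SUVH6, relatives of SUVH4, were called at -0.58 and 0.34, the first call ended without Col replicate 1 or ibm1 replicate 2, and the second without either Col replicate or ibm1 replicate 2 and under the DESeq2 Wald test. IBM2, whose product is known to help transcription pass through the methylated long intron of IBM1, stood at 12.1 and 10.8 CPM in Col and 7.27 and 6.93 CPM in ibm1 and fell by 0.69 ± 0.142 (SE, adjusted p = 0.00247), the 1 fall that held whichever library was left out. SDC, an F-box gene that DNA methylation normally silences, went from 0.562 and 0.469 CPM in Col to 4.23 and 4.03 CPM in ibm1. That rise was 2.999 ± 0.289 (SE, adjusted p = 4.12e-06), while BNS, a gene known to gain methylation in ibm1 plants, went from 5.36 and 4.82 CPM in Col to 3.26 and 2.56 CPM in ibm1. The fall of BNS, 0.80 on the log2 scale, was not called without Col replicate 1 or ibm1 replicate 2.

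Several genes were on in 1 genotype and off in the other. RPL30A (AT1G36240), a copy of the ribosomal protein L30 gene, held 1460 and 1695 counts in the Col libraries and 0 and 0 in ibm1. With a floor of 3 counts over both libraries, it was at least 1052-fold lower. It was also at or near 0 in the other mutants, with 0.116 and 0 CPM in ibm1 jmj27 and 0 and 0.0817 CPM in pds5, comparisons that share the Col libraries. The other copies stayed expressed: RPL30B was at -0.24 (adjusted p = 0.0649), a fall that passed under 5 of the alternatives, and RPL30C was called at -0.24, a call that ended when any library was left out. The genes annotated on either side of it, AT1G36230 and AT1G36272, held 0 and 1 counts over both Col libraries and 0 in ibm1, so they cannot be judged. The next genes out did not share the loss: ACC2 rose by 0.53, and AT1G36280 held 1227 counts over both libraries in each genotype. AT5G02660 went from 53 and 50 counts in Col to 0 and 0 in ibm1, at least 34.3-fold lower.

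Other genes were off in Col and on in ibm1. AT1G13609 held 0 counts in Col and 317 and 280 in ibm1, at least 199-fold higher, and its neighbour AT1G13608 went from 0 to 15 counts over both libraries. AGL67, a MADS-box gene known from maturing seeds, went from 1 to 142 counts over both libraries, a ratio of 142 (exact 95% Poisson interval 25.1 to 5646.5, for counting error only). Its neighbour AT1G77960 rose from 6 to 61 counts, while AGL66 on the far side of that gene went from 37 to 9. On its other side lies AT1G77940, the RPL30B gene just described. The other genes of this kind, bHLH38, bHLH39, IMA1 and IMA2, belong to the iron response. They lie in neighbouring pairs, bHLH38 next to bHLH39 on chromosome 3 and IMA2 next to IMA1 on chromosome 1.

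Plants answer iron shortage through the IMA peptides and the bHLH factors of group Ib, which turn on uptake in roots and redistribution in shoots, while BTS and PYE restrain the response. Of 17 iron regulator genes tested, 11 rose and 0 fell, and 9 rose when any library was left out (10 without Col replicate 1). IMA2 held 2 counts over both Col libraries and 563 over both ibm1 libraries, a ratio of 281 (95% interval 77.6 to 2330). IMA1 went from 1 to 382 counts, a ratio of 382 (95% interval 68.1 to 15124), and IMA3 from 0 to 40, at least 13.3-fold higher. Every ibm1 library was above every Col library for all 3 peptides. bHLH38 went from 1 to 411 counts, bHLH39 from 1 to 181 and bHLH101 from 1 to 28, so that 3 of the 4 group Ib genes were all but silent in Col. The fourth, bHLH100, was at 0.664 and 1.71 CPM in Col and 14.01 and 13.6 CPM in ibm1 and rose by 3.49 ± 0.277 (SE, adjusted p = 8.96e-07). PYE rose by 1.46, from 5.46 and 5.93 CPM in Col to 16.03 and 15.4 CPM in ibm1, and BTS by 0.96, from 73.8 and 76.4 CPM in Col to 140.3 and 152 CPM in ibm1. FIT, the partner of group Ib factors in roots, was low at 0.766 and 1.36 CPM in Col and 0.484 and 0.295 CPM in ibm1 and was not called (adjusted p = 0.0708). The group IVc genes bHLH34 and bHLH115 were called at 0.53 and 0.35, and neither call held without Col replicate 2 or either ibm1 replicate, nor that of bHLH115 without Col replicate 1. The median of the list was 0.96, also with IMA3 at its bound.

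IMA3 (AT2G30766) lies between AT2G30760 and the camalexin gene CYP71A13 (AT2G30770) on chromosome 2, and all 3 rose. AT2G30760 went from 0 to 72 counts and CYP71A13 from 8 to 226 over both libraries. The gene after them, AT2G30780, was called at 0.31. Whether reads of 1 of these neighbours were counted to another was not tested, since the strand setting of the counting is not given in the sources used here.

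**Figure D2:**
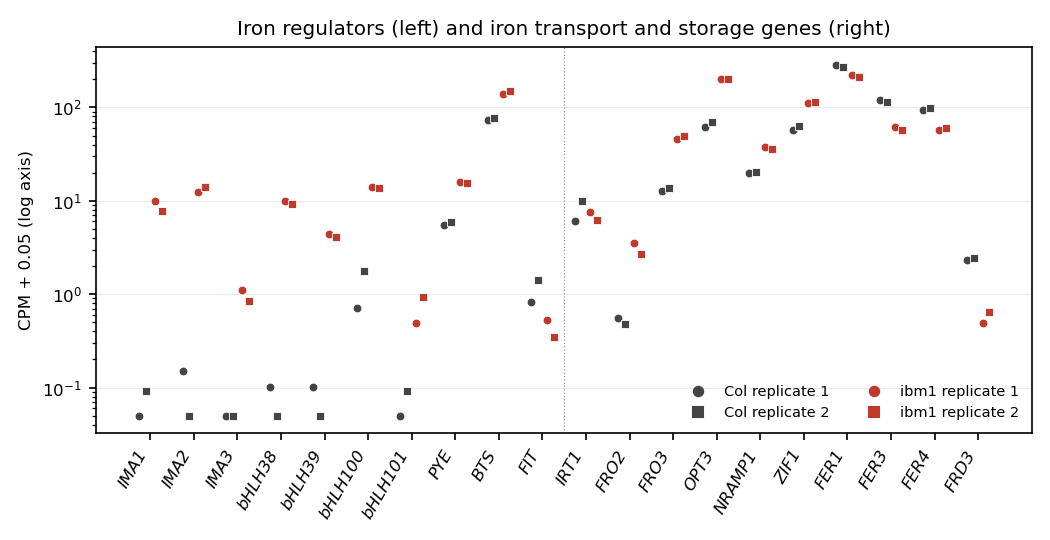
Levels of 10 iron regulator genes (left) and 10 iron transport and storage genes (right) in each Col (grey) and ibm1 (red) bud library, as CPM + 0.05 on a log axis, so that 0 counts appear at 0.05. The IMA genes and bHLH38, bHLH39 and bHLH101 sit near the bottom in Col, and bHLH100 lies higher there. In ibm1 these genes reach up to 14.01 CPM, while the ferritin genes FER1, FER3 and FER4 are lower in ibm1.

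Genes of iron movement and storage changed in both directions, with 10 rising and 6 falling of 22 tested. The ferric reductase genes FRO2, FRO3, FRO6 and FRO7 rose by 2.71, 1.85, 1.39 and 1.47. OPT3, which loads iron into the phloem, stood at 61.8 and 69.95 CPM in Col and 199.6 and 204 CPM in ibm1 and rose by 1.61 ± 0.0974 (SE, adjusted p = 5.03e-08). NRAMP1 and NRAMP4, which carry iron across membranes, rose by 0.87 and 0.69, YSL2 by 1.43 and the nicotianamine exporter gene ZIF1 by 0.90. NAS4, a nicotianamine synthase gene, went from 3 to 25 counts over both libraries, a ratio of 8.33 (95% interval 2.54 to 43.1), and lost its call without either Col replicate or ibm1 replicate 1. Storage genes went down: the ferritin gene FER3 stood at 120.2 and 113 CPM in Col and 61.8 and 57.8 CPM in ibm1 and fell by 0.96 ± 0.0751 (SE, adjusted p = 5.71e-07), FER4 fell by 0.71, and FER1 and FER2 by 0.36 and 0.50. VTL1, a gene of the vacuolar iron transporter family, fell by 0.85. The FER2 call ended when any library was left out, the FER1 call without Col replicate 1 or either ibm1 replicate and the VTL1 call without Col replicate 2 or ibm1 replicate 1, so that 4, 4, 3 and 4 falls were left without Col replicate 1, Col replicate 2, ibm1 replicate 1 and ibm1 replicate 2. FRD3, a citrate exporter, fell by 2.18, from 2.3 and 2.39 CPM in Col to 0.44 and 0.59 CPM in ibm1. The root uptake transporter IRT1, at 6.03 and 9.93 CPM in Col and 7.44 and 6.14 CPM in ibm1, was not called (adjusted p = 0.45), and its libraries overlapped. The root markers summed to 17.0 and 17.4 CPM in Col and 7.93 and 8.65 CPM in ibm1, nearly all from COBL9, and their part in these changes was not tested.

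The iron genes also set ibm1 apart from its double mutant. In ibm1 jmj27, bHLH38 was at 0.155 and 0 CPM and IMA1 at 1.4 and 0.887 CPM, and against ibm1 these differed by -6.73 ± 0.406 on the log2 scale (SE, adjusted p = 2.39e-08) and -2.92 ± 0.214 on the log2 scale (SE, adjusted p = 1.70e-07). In pds5, by contrast, IMA1 and IMA2 were at 33.4 and 32.2 CPM and 43.7 and 48.9 CPM, higher than in ibm1 by 1.89 ± 0.146 on the log2 scale (SE, adjusted p = 2.88e-07) and 1.82 ± 0.248 on the log2 scale (SE, adjusted p = 0.000766). Of all genes tested, 45.5% differed between ibm1 jmj27 and ibm1 and 44.5% between pds5 and ibm1. AFP1 and LEA7 of the abscisic acid response were likewise lower in ibm1 jmj27 than in ibm1, with differences of -1.46 ± 0.0902 on the log2 scale (SE, adjusted p = 2.98e-08) and -3.35 ± 0.105 on the log2 scale (SE, adjusted p = 3.27e-11), and LEA7 was there at 7.73 and 9.52 CPM.

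Superoxide dismutases need iron, copper or manganese as cofactors. FSD1, the iron enzyme, rose by 3.92 ± 0.267 (SE, adjusted p = 4.15e-05), from 3.73 and 2.51 CPM in Col to 50.8 and 42.4 CPM in ibm1. CSD1, the cytosolic copper and zinc enzyme, fell by 0.58 ± 0.0891 (SE, adjusted p = 0.000276), from 372 and 412 CPM in Col to 261 and 265 CPM in ibm1. The libraries of the 2 genotypes were apart for both. CSD3, another copper and zinc enzyme, rose by 0.37, and FSD2, a plastid iron enzyme, fell by 0.27. Neither call held without Col replicate 2 or ibm1 replicate 2, nor that of FSD2 without Col replicate 1. The copper transporter genes COPT1, COPT2 and COPT6 rose by 0.92, 2.62 and 0.75, the copper chaperone gene CCH by 1.1 and the plastocyanin gene PETE1 by 0.62. SPL7, the factor that is known to turn on such genes when copper is short, was called at 0.21, and its call ended when any library was left out. In all, 9 of 16 genes tested rose and 3 fell, with 7, 6, 7 and 6 rises and 1, 1, 2 and 1 falls without Col replicate 1, Col replicate 2, ibm1 replicate 1 and ibm1 replicate 2.

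Glucosinolates are sulfur-rich defence compounds of the cabbage family, and those of the aliphatic kind are built from methionine. The list of genes of this aliphatic pathway held 30 members, of which 4 were not tested. Of 26 genes of that pathway tested, 19 rose and 0 fell, with a median of 1.06 against 0.02 for all genes, and 15 rises held whichever library was left out. The regulator MYB28 rose by 0.64 ± 0.0916 (SE, adjusted p = 0.000148), from 17.1 and 17.5 CPM in Col to 26.8 and 26.98 CPM in ibm1. Chain elongation comes first in the pathway. MAM1, which extends the chain, went from 0.306 and 0.81 CPM in Col to 3.74 and 4.03 CPM in ibm1, a change of 2.74. IPMI2, a small subunit of the isomerase that follows, went from 0.511 and 0.213 CPM in Col to 3.96 and 4.03 CPM in ibm1, a change of 3.49, and the other small subunit gene, IPMI1, rose by 2.8. BCAT4, which starts the chain, had 0 counts in Col and 23 over both ibm1 libraries, at least 7.67-fold higher, and IMD1 rose by 1.85. For each of these genes both ibm1 libraries were above both Col libraries. A weak gene can pass the filter on low counts through the mutants alone, and without counts in Col, like BCAT4, it cannot fall. The counts of rises and the median therefore describe the tested genes and not the whole pathway.

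Core synthesis and side-chain genes of the pathway rose too. CYP83A1 stood at 8.12 and 6.48 CPM in Col and 44.4 and 40.2 CPM in ibm1 and rose by 2.54 ± 0.125 (SE, adjusted p = 7.86e-09), and CYP79F1 rose by 3.71 from 0.153 and 0.128 CPM in Col to 1.59 and 2.21 CPM in ibm1. GSTU20, UGT74C1 and SOT17, which act later in the core, rose by 0.69, 0.54 and 1.1. The side-chain oxidase genes FMO GS-OX2, FMO GS-OX3 and FMO GS-OX4 rose by 1.56, 3.32 and 1.02, and FMO GS-OX5 was at -0.14. The transporter gene GTR2 was at -0.17 (adjusted p = 0.151) and missed the threshold. So did IIL1, the large subunit that pairs with IPMI1 or IPMI2, at -0.08 (adjusted p = 0.472). The lowest change among the tested genes of this list was -1.6, which was not called. Of 6 genes of the indolic branch 4 rose, with CYP79B2 at 5.77 and 5.12 CPM in Col and 15.3 and 14.1 CPM in ibm1 and rises of 0.93 in CYP83B1 and 0.66 in SOT16. That of MYB34, 0.91, was not called without ibm1 replicate 2.

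Sulfate uptake and reduction genes moved with them. Of 15 tested, 11 rose and 0 fell, with 6, 7, 7 and 7 rises without Col replicate 1, Col replicate 2, ibm1 replicate 1 and ibm1 replicate 2. LSU1, a gene known to respond to sulfur shortage, rose by 3.49 ± 0.425 (SE, adjusted p = 3.60e-05), from 0.204 and 0.256 CPM in Col to 3.08 and 2.21 CPM in ibm1, and LSU2 by 1.06. The reductase genes APR1 and APR2 rose by 0.87 and 0.65, and the transporter gene SULTR3;1, at 75.6 and 75.2 CPM in Col and 147 and 146 CPM in ibm1, by 0.96. SULTR1;2, the main root transporter gene, was at 0.16 (adjusted p = 0.506). In the neighbouring pathway to camalexin, an indole defence compound, 4 of 8 genes rose. CYP71A13 rose by 4.77 ± 0.341 (SE, adjusted p = 2.47e-07) and the regulator WRKY33 by 1.05. Whether CYP71A13 shared reads with its neighbours was not tested, as said above. The other 4 missed the threshold: PAD3 was at -0.66, CYP71A12 at 0.55, GSTF6 at -0.22 and CYP79B3 at 0.60. PAD3, CYP71A12 and GSTF6 each changed sign in at least 1 fit with a library left out. The myrosinase genes TGG1 and TGG2, whose enzymes cut glucosinolates, were among the most abundant falling genes, at -0.27 and -0.35. The TGG1 call ended when any library was left out and the TGG2 call without Col replicate 2 or either ibm1 replicate. NAI2, a gene for the ER bodies that store such enzymes, fell by 3.69 ± 0.427 (SE, adjusted p = 2.29e-05), from 4.19 and 4.31 CPM in Col to 0.352 and 0.295 CPM in ibm1.

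**Figure D3:**
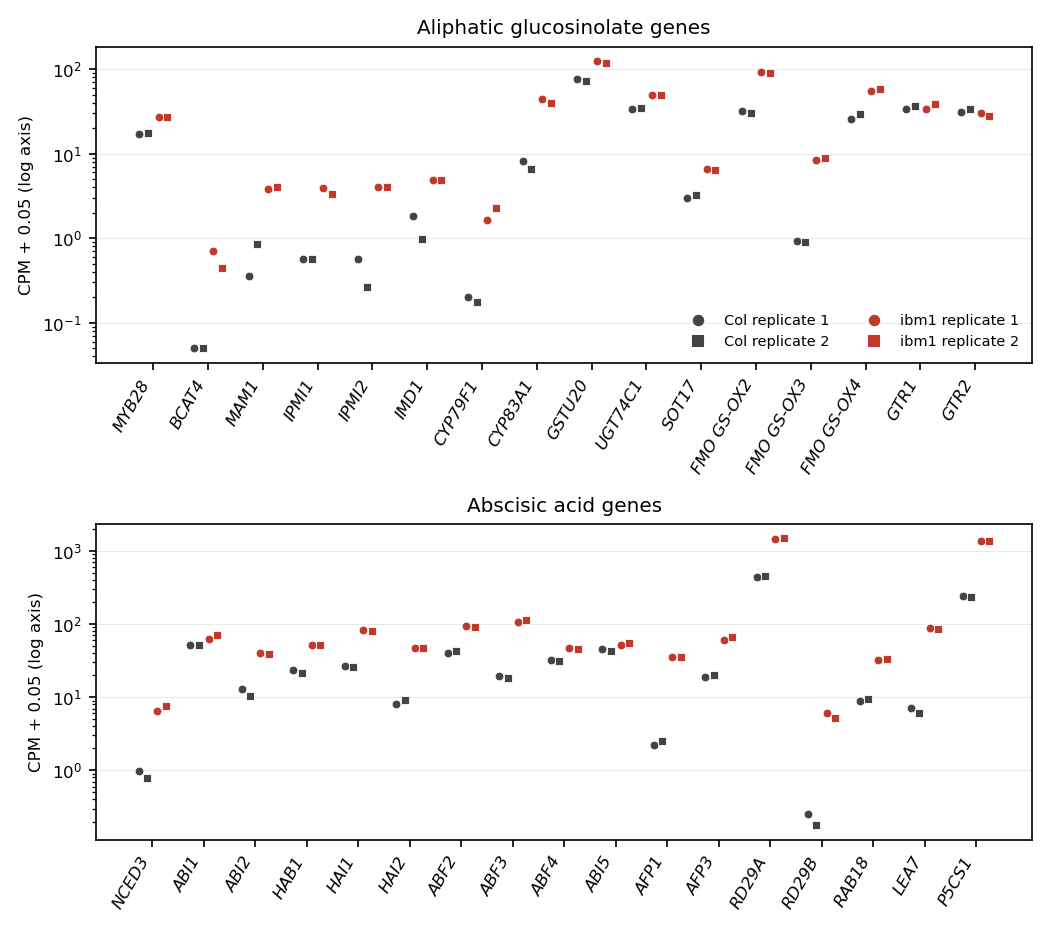
Levels of 16 aliphatic glucosinolate genes (top) and 17 abscisic acid genes (bottom) in each Col (grey) and ibm1 (red) bud library, as CPM + 0.05 on a log axis. The synthesis genes shown are higher in both ibm1 libraries while GTR2 stays near its Col level, and RD29A and P5CS1 exceed 1000 CPM in ibm1. IIL1 and FMO GS-OX5, which missed the threshold, are not shown.

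Abscisic acid is the hormone of drought and seed maturation, and it acts by silencing the PP2C phosphatases that hold back the ABF factors. Of 21 genes of its response tested, 18 rose and 0 fell, with a median of 1.72, and 15 rises held whichever library was left out. NCED3, the gene of the rate-limiting enzyme of its synthesis, rose by 3.07, from 0.919 and 0.725 CPM in Col to 6.39 and 7.42 CPM in ibm1. The factor genes ABF2, ABF3 and ABF4 rose by 1.14, 2.55 and 0.52, ABF3 from 19.6 and 18.1 CPM in Col to 108 and 113 CPM in ibm1. The phosphatase genes ABI2, HAB1, HAI1 and HAI2 rose by 1.77, 1.21, 1.65 and 2.44, and ABI1, at 0.36, lost its call without ibm1 replicate 2. Among the protective targets, P5CS1 of proline synthesis stood at 238 and 236 CPM in Col and 1349 and 1352 CPM in ibm1 and rose by 2.51 ± 0.0947 (SE, adjusted p = 7.65e-10). RD29A rose by 1.72, from 433 and 459 CPM in Col to 1457 and 1479 CPM in ibm1, RD29B by 5.08 and RAB18 by 1.8. AFP1, whose product restrains the hormone's response, rose by 3.92 ± 0.12 (SE, adjusted p = 2.64e-10), from 2.2 and 2.43 CPM in Col to 35.3 and 35.3 CPM in ibm1. LEA7, a gene for a protective protein, rose by 3.74 ± 0.11 (SE, adjusted p = 2.64e-10), from 7.1 and 6.05 CPM in Col to 88.4 and 86.1 CPM in ibm1, and both were among the 12 largest rises of genes with a symbol. TMAC2 and AFP2 were at -0.22 and 0.19, and the seed genes ABI3, EM1 and EM6 were too low to be tested.

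Cold genes did not move as 1 block. Of 11 tested, 7 rose and 3 fell, with 5, 4, 5 and 4 rises without Col replicate 1, Col replicate 2, ibm1 replicate 1 and ibm1 replicate 2. The factor gene CBF3 rose by 1.72 and the targets COR15A and ERD10 by 0.61 and 0.72. KIN1, KIN2 and COR15B, which belong to the same cold-induced set, fell by 0.73, 0.55 and 0.46, with KIN2 at 2483 and 2485 CPM in Col and 1768 and 1636 CPM in ibm1. Of 4 tested genes known to rise when sugar runs out 3 fell, whichever library was left out: DIN10 stood at 88.8 and 85.8 CPM in Col and 18.8 and 17.9 CPM in ibm1 and fell by 2.25 ± 0.12 (SE, adjusted p = 2.71e-08), ASN1 by 1.95 and SEN1 by 2.61. DIN3 was at 0.09 (adjusted p = 0.447). Of 20 starch genes 9 rose and 1 fell, with 6, 5, 6 and 5 rises without the same libraries in turn. GBSS1, which makes amylose and is known to follow the morning clock, rose by 2.08 ± 0.0992 (SE, adjusted p = 5.79e-09), from 47.6 and 45.8 CPM in Col to 198 and 198 CPM in ibm1, and the branching enzyme gene SBE2.2 by 0.85. BAM3, a starch-degrading amylase gene, was the 1 fall, by 0.56.

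Nearly every circadian clock gene differed between the libraries of the 2 genotypes. The clock turns from a morning phase, with LHY, CCA1, RVE8 and the LNK coactivators, through the PRR repressors to the evening genes. Of 12 morning genes 10 rose, with a median of 1.68, and 9 rises held whichever library was left out. RVE8 went from 2.45 and 2.43 CPM in Col to 18.8 and 18.5 CPM in ibm1, a rise of 2.93. LNK4 went from 3.52 and 3.45 CPM in Col to 23.1 and 24.4 CPM in ibm1, a rise of 2.77. LNK1, LNK2 and LNK3 rose by 1.51, 1.86 and 2.45, and LHY and CCA1 by 2.74 and 3.27. RVE2 fell by 1.09, the 1 fall, and RVE6 was at 0.21. RVE1 was called at 0.71, and its call ended without Col replicate 2 or either ibm1 replicate. Of 14 day and evening genes 3 rose and 10 fell, the same numbers whichever library was left out. PRR9, the earliest, rose by 3.66 ± 0.128 (SE, adjusted p = 6.66e-10), from 3.42 and 2.6 CPM in Col to 36.995 and 38.6 CPM in ibm1, and PRR7, the next, by 0.53. PRR5, PRR3 and TOC1, which follow, fell by 0.77, 1.94 and 1.3. ELF4, BOA and FKF1 of the evening fell by 2.77, 2.13 and 1.8, with FKF1 at 93.4 and 92.4 CPM in Col and 27.9 and 25.5 CPM in ibm1. Summed over the 12 morning genes, levels were 173 and 179 CPM in Col and 518 and 536 CPM in ibm1. The labels give no time of harvest, so genotype and time of collection cannot be told apart for these genes.

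**Figure D4:**
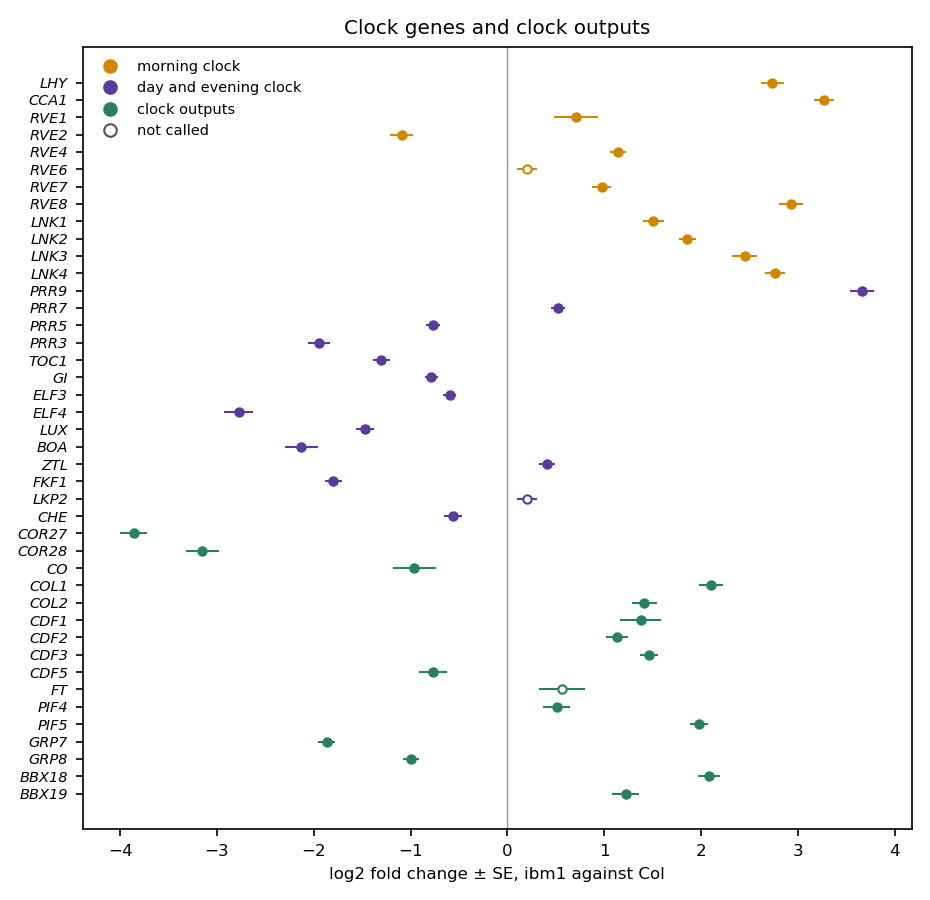
Log2 fold change of ibm1 against Col with its SE for 12 morning clock genes, 14 day and evening clock genes and 16 clock outputs, with open points for genes that missed the threshold. Morning genes lie to the right of 0 except RVE2, and evening genes from PRR5 to CHE lie to the left except ZTL and LKP2.

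Known outputs of the clock also changed, with 9 rises and 6 falls of 16. COR27 and COR28, evening genes that repress the clock at night, fell by 3.86 and 3.15, COR27 from 82.1 and 88.9 CPM in Col to 5.33 and 6.49 CPM in ibm1. The RNA-binding protein genes GRP7 and GRP8, known to peak in the evening, fell by 1.87 and 1.00, and GRP7, at 4727 and 4336 CPM in Col and 1288 and 1196 CPM in ibm1, was among the most abundant genes that fell. CDF1, CDF2 and CDF3, morning repressors of CO, rose by 1.38, 1.13 and 1.46, while CDF5 of the same family fell by 0.77. CO, the flowering gene, fell by 0.96, a call that ended without ibm1 replicate 2. COL1, COL2 and PIF5 rose by 2.1, 1.42 and 1.98. FT, the target of CO, was at 0.56 (adjusted p = 0.0898). Of 19 genes of the B-box family 9 rose and 2 fell, with 1 fall left whichever library was omitted. The rises included BBX31, BBX32, BBX18 and BBX29, by 3.68, 3.07, 2.08 and 1.88, and BBX8 fell by 1.26 ± 0.1 (SE, adjusted p = 6.77e-07), from 53.6 and 55.1 CPM in Col to 21.4 and 23.99 CPM in ibm1.

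Photosynthesis genes in the nucleus rose almost as a whole. Of 35 genes of the photosystems and their antennas 34 rose and 0 fell, with a median of 0.71, and 29 rises held whichever library was left out. The antenna genes moved most: LHCB1.1 rose by 2.46, LHCB2.1 by 2.35 and LHCB1.4, a weakly expressed copy, by 2.87. Their counts are uncertain where copies are near identical, since the treatment of reads that map to several copies is not given. LHCA1, of photosystem I, stood at 765 and 728 CPM in Col and 1558 and 1462 CPM in ibm1 and rose by 1.02, and LHCB4.2 rose by 1.33. Other photosystem genes rose less, PSAD1 by 0.45, PSAL by 0.48 and PSBO1 by 0.56, and PETC was at 0.20 (adjusted p = 0.0576). The regulators GLK1 and GLK2, which turn on antenna and chlorophyll genes, rose by 1.44 ± 0.0712 (SE, adjusted p = 7.71e-09) and 1.25 ± 0.119 (SE, adjusted p = 3.90e-06), and GUN4 of chlorophyll synthesis by 1.16. For GLK1 the libraries stood at 37.8 and 35.6 CPM in Col and 97.3 and 101 CPM in ibm1, with no overlap. Of 16 genes of carbon fixation and chlorophyll 12 rose and 1 fell, with 8, 7, 8 and 6 rises without Col replicate 1, Col replicate 2, ibm1 replicate 1 and ibm1 replicate 2, and no fall without the first or the last of these. The Rubisco activase gene RCA rose by 0.54. Among photoreceptors PHOT2 rose by 1.14 ± 0.075 (SE, adjusted p = 1.15e-07), from 119 and 123 CPM in Col to 267 and 269 CPM in ibm1, and PHYD, PHYE and CRY1 by 0.90, 0.73 and 0.44. The light signal factor gene HYH rose by 1.001. Antenna genes are known to cycle through the day, and the part of the clock shift given above in these rises was not tested.

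Meiotic genes were described in 3 lists. Of 26 genes of double-strand breaks, chromosome axes and strand invasion 0 rose and 4 fell, and the share that fell was near that of all genes. SPO11-1, which makes the breaks, stood at 2.09 and 2.22 CPM in Col and 2.29 and 2.06 CPM in ibm1, a change of 0.01, and its libraries overlapped. The strand exchange gene DMC1, at 20.4 and 21.1 CPM in Col and 18.7 and 20.7 CPM in ibm1, had a change of -0.08, and its libraries overlapped too. MND1, a partner of DMC1, fell by 0.60 ± 0.121 (SE, adjusted p = 0.00197), from 13.4 and 14.96 CPM in Col to 9.65 and 9.04 CPM in ibm1, the 1 call of this list that held whichever library was left out. ASY1, an axis protein gene, stood at 4.65 and 4.99 CPM in Col and 1.76 and 2.56 CPM in ibm1 and fell by 1.17 ± 0.268 (SE, adjusted p = 0.00488), and its call ended without ibm1 replicate 1, which left 1 fall in the list. Without Col replicate 1, Col replicate 2 and ibm1 replicate 2 the falls numbered 3, 3 and 2. Of 18 crossover genes 2 rose and 1 fell, with 1, 1, 1 and 2 rises and 0, 0, 0 and 1 falls without Col replicate 1, Col replicate 2, ibm1 replicate 1 and ibm1 replicate 2. HEI10, whose protein marks crossover sites, rose by 0.86 ± 0.152 (SE, adjusted p = 0.000779), from 5.62 and 5.29 CPM in Col to 10.4 and 9.34 CPM in ibm1. Its locus number, AT1G53490, follows that of MRD1 (AT1G53480), which rose by 3.7. Whether reads of MRD1 were counted to HEI10 was not tested. MLH3, a mismatch repair protein gene that acts in crossing over, was called at 0.61 and RECQ4A, a helicase gene known to limit crossovers, at -0.29, and neither call held without either Col replicate or ibm1 replicate 1. MSH4, ZIP4 and FANCM missed the threshold, at -0.33, -0.52 and -0.10. Of 12 genes of the meiotic divisions 4 fell, with 4, 1, 1 and 2 falls without Col replicate 1, Col replicate 2, ibm1 replicate 1 and ibm1 replicate 2. TDM1, which ends meiosis, fell by 1.86 ± 0.289 (SE, adjusted p = 0.000284), from 3.93 and 4.05 CPM in Col to 0.925 and 1.28 CPM in ibm1, and its call held whichever library was left out. MMD1, a meiotic regulator gene, was called at -1.65, a call that ended without Col replicate 2 or either ibm1 replicate. SDS, the meiotic cyclin, was at -0.43 (adjusted p = 0.0604).

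The tapetum, the innermost anther wall layer, which nourishes developing pollen, had lower RNA of many of its genes. Of 15 regulator genes 8 fell and 0 rose, with 6, 4, 6 and 5 falls without Col replicate 1, Col replicate 2, ibm1 replicate 1 and ibm1 replicate 2. The factor genes bHLH91, bHLH10 and bHLH89 fell by 0.83, 0.52 and 0.47, with bHLH10 at 57.2 and 62.3 CPM in Col and 42.4 and 41.1 CPM in ibm1. MS1, a late regulator, fell by 0.75 ± 0.136 (SE, adjusted p = 0.000998), from 28.2 and 27.7 CPM in Col to 14.5 and 18.9 CPM in ibm1. AMS, at 225 and 243 CPM in Col and 143 and 138 CPM in ibm1, fell by 0.74, a call that ended without Col replicate 2 or ibm1 replicate 2. SPL, which acts earliest, was at -0.19 (adjusted p = 0.334). Genes of callose and tetrad separation fell in 5 of 6 cases, whichever library was left out. CALS5, which lays the callose wall, fell by 1.06, from 23.2 and 26.3 CPM in Col to 11.8 and 11.99 CPM in ibm1, and QRT1 and QRT3, which part the microspores, fell by 0.90 and 0.67. CDM1 and KNS4 fell by 1.18 and 0.65.

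Pollen coat genes were among the most abundant in these buds. Of 12 genes of the coat and late tapetum 10 fell and 0 rose, with a median of -0.75 and 7 falls that held whichever library was left out. GRP19 stood at 1340.2 and 1409 CPM in Col and 791 and 769 CPM in ibm1 and fell by 0.82 ± 0.107 (SE, adjusted p = 6.88e-05), and GRP14, GRP16 and GRP20 fell by 0.58, 0.67 and 0.73. GRP14, GRP18, GRP17, GRP16 and GRP19 lie side by side on chromosome 5, and GRP17 stood at 4371 and 5007 CPM in Col and 2463 and 2351 CPM in ibm1. GRP17 was called at -0.96, and its call ended without Col replicate 2 or either ibm1 replicate and without the filter on low counts. Sporopollenin genes, which build the outer wall, had lower values in both ibm1 libraries with wide errors in the joint fit: ACOS5 was at 279 and 306 CPM in Col and 152 and 149.5 CPM in ibm1, a change of -0.96 ± 0.48 (SE, adjusted p = 0.216) that missed the threshold. MS2 was at -0.76 (adjusted p = 0.214). Of 12 such genes 2 fell in the joint fit, 1 without Col replicate 1 or ibm1 replicate 2, 4 under the replicate block or the DESeq2 Wald test, 8 without robust estimation and 12 when the Col and ibm1 libraries were fitted alone. ACOS5 and MS2 passed under the last 2 of these settings. Summed over the list, levels were 2183 and 2395 CPM in Col and 1404 and 1379 CPM in ibm1. In ibm1 jmj27 they were 1168 and 2042 CPM, and in pds5 867 and 1276 CPM. The transporter gene ABCG26 fell by 0.69 ± 0.132 (SE, adjusted p = 0.00289).

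Genes of mature pollen also fell. Of 24 tested 12 fell and 2 rose, with a median of -1.46, and 10 falls held whichever library was left out. Summed over the list, levels were 529 and 510 CPM in Col and 213 and 210 CPM in ibm1. Pectin-modifying genes, which act on the wall of the pollen tube, were among them. PGA4 went from 104 and 95.6 CPM in Col to 31.5 and 32.9 CPM in ibm1, a fall of 1.63 ± 0.0958 (SE, adjusted p = 4.46e-08), and VGDH2 and PPME1 fell by 1.7 and 1.71. The proton pump genes AHA6, AHA8 and AHA9 fell by 1.63, 1.33 and 1.6, and the actin-binding genes ADF7 and ADF10 by 1.19 and 2.03. In all of these the libraries of the 2 genotypes were apart. ANX1 and AGL65 were called at 0.39 and 0.65, and neither call held without either Col replicate or ibm1 replicate 2, nor under the DESeq2 Wald test, nor that of ANX1 without ibm1 replicate 1. The sperm genes DUO1 and MGH3, at under 1 CPM in every library, were called at -1.69 and -1.68, and both calls ended when any library was left out. GCS1 and GEX1 of that list were at -0.29 and 0.51 and missed the threshold.

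**Figure D5:**
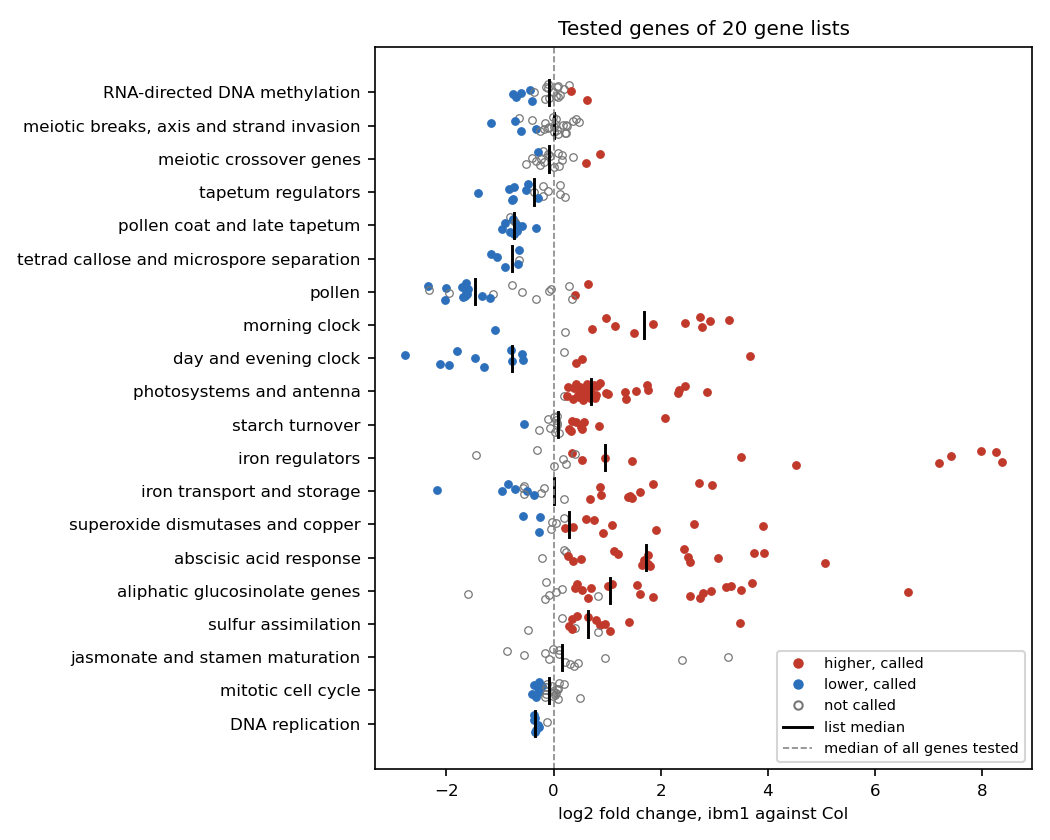
Log2 fold change of ibm1 against Col for each tested gene of 20 gene lists, with filled points for genes that were called, open points for the rest, a black bar for each list's median and a dashed line for the median of all genes tested (0.02). The iron regulator, abscisic acid, glucosinolate and photosystem lists lie to the right. The anther and pollen lists lie to the left and the meiotic lists around 0. Iron transport and storage genes spread to both sides, with a median of 0.01.

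Some cell surface and defensin-like genes also fell. Of 107 LCR and SCRL genes, which encode small cysteine-rich proteins, 87 were too low to be tested, 20 passed the filter and 14 fell, with 9, 12, 9 and 10 falls without Col replicate 1, Col replicate 2, ibm1 replicate 1 and ibm1 replicate 2. A weak gene can pass that filter through 1 genotype alone. LCR34, for example, went from 34 to 2 counts and LCR25 from 34 to 3 over both libraries. The 14 falls therefore describe the tested genes and not the family. LCR69 went from 385 and 395 CPM in Col to 197 and 178 CPM in ibm1, a fall of 1.06. LCR68 and LCR66 fell by 1.23 and 0.90, also with both ibm1 libraries below both Col libraries. SCRL25 fell by 2.14, from 4.19 and 4.26 CPM in Col to 0.969 and 0.934 CPM in ibm1. Of 26 arabinogalactan protein genes 13 fell and 0 rose. The pollen members AGP6, AGP23 and AGP40 fell by 1.16, 1.83 and 1.85, and AGP21, at 52.8 and 41.5 CPM in Col and 24.6 and 20.4 CPM in ibm1, by 1.06, while AGP31 and AGP1, both abundant, were at -0.18 and -0.05. AGP15 and AGP10 fell by 0.48 and 0.56.

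Several genes of dividing cells fell. Of the mitotic genes given below 29.2% were called, near the 31.0% of all genes. All of those calls were falls, while 14.5% of all genes fell. Of 8 DNA replication genes 7 fell, by 0.27 to 0.37 on the log2 scale, with MCM5 at 88.04 and 86.9 CPM in Col and 67.8 and 67.9 CPM in ibm1 and a fall of 0.37 ± 0.0655 (SE, adjusted p = 0.000871). The falls numbered 6, 4, 3 and 5 without Col replicate 1, Col replicate 2, ibm1 replicate 1 and ibm1 replicate 2. Of 24 mitotic genes 7 fell and 0 rose, with 3, 3, 3 and 2 falls without those libraries. CYCD3;1 fell by 0.41, from 52.8 and 54.8 CPM in Col to 42.3 and 38.6 CPM in ibm1. Of 14 H2A and H2B histone genes tested 11 fell and 1 rose, with 3, 4, 4 and 2 falls without each library, and HTB2 and HTA13 fell by 0.56 and 0.54 throughout. Of 15 tubulin genes 10 fell, with 5, 7, 5 and 5 without each library. TUA5, at 474 and 474 CPM in Col and 281 and 271 CPM in ibm1, and TUB8 fell by 0.78 and 0.73. In the DNA damage response, ANAC044 and SMR5, known targets of the SOG1 factor, rose by 2.02 and 2.6, ANAC044 from 1.02 and 1.41 CPM in Col to 4.8 and 5.21 CPM in ibm1. The kinase gene ATR fell by 0.67 ± 0.138 (SE, adjusted p = 0.00242) and SOG1 was at 0.12. SMR4, SMR7 and BRCA1 of the same response were at -0.23, 0.82 and -0.04 and missed the threshold. WEE1 was called at -0.53, a call that ended when any library was left out. Over that list 5 rose and 4 fell of 20, with 2, 2, 2 and 3 rises and 2, 1, 2 and 1 falls without each library.

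Some floral and hormone genes changed and others did not. Of 19 floral organ genes 2 rose and 8 fell, with 3, 3, 2 and 3 falls without Col replicate 1, Col replicate 2, ibm1 replicate 1 and ibm1 replicate 2. INO, an ovule gene, fell by 0.99 ± 0.194 (SE, adjusted p = 0.00162), from 6.49 and 6.69 CPM in Col to 2.86 and 3.78 CPM in ibm1, and FUL, a fruit gene, rose by 0.43, from 67.8 and 68.7 CPM in Col to 89.6 and 93.97 CPM in ibm1, and these were the calls that held whichever library was left out. Of 16 auxin genes 6 fell and 0 rose, with 4, 4, 3 and 3 falls without each library, and the early response genes IAA1 and IAA19 fell by 1.32 ± 0.126 (SE, adjusted p = 3.83e-06) and 1.01 ± 0.133 (SE, adjusted p = 7.09e-05). Of 14 genes of jasmonate synthesis and stamen maturation 0 rose and 0 fell by edgeR's test or the DESeq2 Wald test, while 2 had an unadjusted p under 0.05. JAR1, which joins jasmonate to isoleucine, was at -0.56 and passed under the replicate block and without robust estimation, LOX4, at -0.87, passed without robust estimation, and 5 genes rose and 3 fell when the Col and ibm1 libraries were fitted alone. VSP2, a jasmonate-induced storage protein gene, stood at 861 and 949.6 CPM in Col and 1235 and 1251 CPM in ibm1, a change of 0.46 that missed the threshold in the joint fit (adjusted p = 0.122). LOX2 was at 0.22, AOS at 0.38 and OPR3 at -0.15, and MYB24, a factor of late stamens, was too low to be tested. In the salicylic acid list PBS3 rose by 0.61, while NPR1 and EDS1 were at 0.18 and -0.05 and missed the threshold. Over that list 1 rose and 3 fell of 13, with 0, 1, 1 and 0 falls without each library. BSMT1, which methylates salicylic acid, stood at 17.2 and 17.8 CPM in Col and 2.11 and 2.998 CPM in ibm1 and fell by 2.79 ± 0.498 (SE, adjusted p = 0.0125), a call that ended when any library was left out.

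Other families were described by the same counts. Tested WRKY genes were called as often as genes in general, 31.25% against 31.0%. Rises made up 16.7% against 16.5% and falls 14.6% against 14.5%, so the WRKY genes named below are single cases. Of 67 WRKY factor genes, many of which act in defence, 48 were tested, and 8 rose and 7 fell, with 5, 5, 4 and 4 rises without Col replicate 1, Col replicate 2, ibm1 replicate 1 and ibm1 replicate 2. WRKY57 and WRKY35 rose by 1.6 and 1.23, and WRKY42 and WRKY31 fell by 1.32 and 1.61. WRKY54, a regulator in salicylic acid defence, stood at 19.5 and 17.6 CPM in Col and 8.54 and 9.09 CPM in ibm1 and fell by 1.07 ± 0.127 (SE, adjusted p = 2.91e-05), with both ibm1 libraries well below Col. Of 10 JAZ repressor genes, which hold back jasmonate responses, 0 rose and 4 fell, with 2, 1, 0 and 1 falls without each library. JAZ10 was at 30.1 and 33.3 CPM in Col and 15.4 and 16.7 CPM in ibm1, and its call, at -0.98, ended when any library was left out and without the filter on low counts. In the flavonoid pathway 4 of 16 genes rose and 3 fell, with 2, 4, 1 and 3 rises and 2, 1, 1 and 1 falls without each library. F3H, an early step, rose by 0.40 ± 0.0802 (SE, adjusted p = 0.00203) and F3'H, which adds a hydroxyl group to the B ring, fell by 0.52 ± 0.0821 (SE, adjusted p = 0.000342), and CHS, the entry step, was at 0.12 (adjusted p = 0.27). The chaperone genes BIP1 and BIP2 of the endoplasmic reticulum stood lower in both ibm1 libraries and fell by 0.41 and 0.50, while HSP18.2, a small heat shock protein gene, rose by 1.26 ± 0.148 (SE, adjusted p = 2.54e-05), from 5.11 and 6.52 CPM in Col to 13.3 and 14.8 CPM in ibm1. Of 16 fasciclin-like arabinogalactan protein genes 9 fell and 0 rose, with 4, 6, 4 and 4 falls without each library. FLA20 and FLA2 fell by 0.89 and 0.59 throughout. Of 12 genes of the ERECTA receptors and the stomatal lineage 1 was called, ERL2 at 0.20, and that call ended when any library was left out, under 3 further settings and without robust estimation. ER, the receptor itself, was at -0.02 with 383 and 391 CPM in Col and 381 and 384 CPM in ibm1.

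The remaining genes with the largest changes belong to no list above. MRD1, PUB19, a ubiquitin ligase gene, and cPT4, a prenyltransferase gene, rose by 3.7, 3.64 and 3.6, with MRD1 at 1.58 and 1.02 CPM in Col and 16.3 and 17.01 CPM in ibm1. MIOX4, which oxidises inositol, stood at 18.5 and 20.1 CPM in Col and 3.13 and 3.49 CPM in ibm1 and fell by 2.55 ± 0.311 (SE, adjusted p = 0.000225). MSRB9, PCK2 and MUB5 fell by 2.48, 2.42 and 2.38. The lipid transfer protein gene LP1, at 1528 and 1451 CPM in Col and 2455 and 2255 CPM in ibm1, was among the 5 most abundant genes that rose, by 0.66, together with RBCS1A, RBCS3B, LHCB1.3 and LHCB1.5. The RBCS1A rise, 0.25, ended when any library was left out and that of RBCS3B, 0.37, without Col replicate 2 or ibm1 replicate 2. ATA20, an anther gene, was the most abundant fall not yet named, at 3097 and 3734 CPM in Col and 1894 and 1859.8 CPM in ibm1, a fall of 0.86.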

How the data were processed

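Polyadenylated RNA of closed buds was sequenced, per the labels' protocols. The authors deposited 3 tables of gene counts, not normalized, each with the 2 Col libraries beside the 2 of 1 mutant. The submitters' processing notes name HISAT2, Subread, DESeq2 and TAIR10, with no versions or roles. Whether counting used strand or reads that map to several genes is not given in the sources used here, so counts of near-identical copies and of overlapping genes are uncertain.

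Counts of the 8 bud RNA libraries were fitted together with edgeR 4.0.16 (limma 3.58.1, R 4.3.3): TMM scaling, filterByExpr by genotype, robust quasi-likelihood fit with 4 residual degrees of freedom. The contrast was ibm1 against Col, and p-values of the 21548 genes tested were adjusted by the Benjamini-Hochberg method, with calls at an adjusted p under 0.05. The SE was taken as the size of the change divided by the square root of its F statistic, and with few counts it can lie below the counting error. The steps were tested on simulated data. CPM use TMM-scaled library sizes. Total counts were between 19490663 and 23532908 in Col and ibm1. Where 1 to 3 counts stood in a genotype, the ratio has an exact 95% Poisson interval; with 0 counts the floor was 3 counts over both libraries. Intervals and floors cover counting error only.

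The members and 44 gene lists were chosen with earlier results of these data known, and 11 more lists (glucosinolates, sulfur, RPL30 copies, H2A and H2B histones, tubulins, arabinogalactan and fasciclin-like proteins, LCR and SCRL, B-box, WRKY) after values were seen; list counts are descriptions. 1 crossover gene is not reported here and is left out of its list. Named genes are the KDM3 and PDS5 genes, the 12 largest rises and 12 largest falls among genes with a symbol, a mean log2 CPM of at least 1 and libraries that do not overlap, list members with the smallest p or a needed role, genes with at most 3 counts in 1 genotype and at least 50 per library in the other, and the 5 most abundant genes called in each direction. Further list members were named after their values were seen. Of 27416 genes, 26719 had a row in RefSeq (TAIR10.1), used for names and gene order; 57 list genes lack the name used here there and were matched by locus alone. Alternatives were DESeq2 size factors, no filter, the DESeq2 1.42.0 Wald test, Col and ibm1 fitted alone, the replicate number as a block, each library left out, stricter thresholds and no robust estimation.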

Additional observations from a re-analysis of the deposited data

How the results depend on the processing

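IBM1 kept its fall under every alternative run, between -1.35 and -1.44 on the log2 scale. Genes called numbered 3254 higher and 3376 lower with DESeq2 size factors in edgeR, 3564 and 3173 without the filter, 2535 and 2729 by the DESeq2 Wald test, 4672 and 4727 with Col and ibm1 fitted alone, and 3506 and 3142 without robust estimation. They numbered 2208 and 1809 at an adjusted p under 0.01, and 771 and 759 with at least a 2-fold change. Leaving out 1 library gave 2051 to 2190 higher and 1658 to 1882 lower; these fits hold fewer samples, and a lone library is then assumed to vary like the other groups. Same-numbered replicates of Col and ibm1 did not deviate together (correlation 0.0055), while the value for ibm1 jmj27 and pds5 was 0.101. Such a correlation cannot show whether same-numbered libraries were handled together. With the replicate number as a block 3705 genes were higher and 3322 lower. Of 110 list counts, 107 stayed within 1.5 times under the block, 96 under the Wald test and 70 without ibm1 replicate 2. The median of all genes moved by less than 0.1 on the log2 scale under each scaling. SPO11-1 changed sign, to -0.00564 with DESeq2 size factors and -0.00573 by the Wald test, and lay between -0.064 and 0.074 with 1 library left out; IRT1 lay between -0.55 and 0.17, the latter without Col replicate 2. For both, the cause was not tested. Genes said to miss the threshold that passed with Col and ibm1 fitted alone were JMJ27, PDS5C, RPL30B, FIT, PETC, FT, SDS, ACOS5, MS2, AP1, AGP31, CHS, CYP79B3, AOS, LOX2, LOX4, OPR3, JAR1 and VSP2. FIT also passed without the filter and SDS with DESeq2 size factors. With n = 2 libraries per genotype, depth limits what can be seen in genes of few counts, among them FIT, DUO1, MGH3 and COPT2.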
